A study of Mus musculus with 4 samples.

Results

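The zinc finger genes Zfp600 to Zfp999 were followed in mouse embryonic stem cells (ESCs) with and without BMAL1. They were chosen by symbol and then by position. Each feature has a symbol, alone or joined to another by a comma, that is Zfp followed by a 3-digit number. That number begins with 6, 7, 8 or 9, with at most 1 letter after it. Features on chromosome 6 between 70.84 and 88.21 Mb were left out, which removed 1 feature. The rule gave 148 features carrying 144 symbols on 19 chromosomes, of 19645 features in the table. The symbol pattern used no measured value, but the rule, with its window on chromosome 6, was written with results of these data known.

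RNA was sequenced from 2 libraries of *Bmal1* WT ESCs and 2 libraries of *Bmal1* KO ESCs, all labelled as mouse ESCs with no further treatment. The KO line is 1 clone made with CRISPR/Cas9 that carries a frameshift deletion in the exon with the start codon of *Arntl*, the gene for BMAL1. The study's methods call the replicates biological, and the labels name no separate cultures. Each p-value measures the spread between these libraries, and effects of the genotype and of the clone cannot be told apart. Levels are FPKM, the number of sequenced fragments divided by the length of the transcript in kilobases and by the mapped fragments of the library, and the depth of the libraries is unknown.

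Many genes of this numbered series encode proteins with a KRAB domain followed by a row of zinc fingers. The fingers bind particular DNA sequences, often in transposable elements, and the KRAB domain recruits TRIM28, which brings in the histone methyltransferase SETDB1 and other silencing factors. Such genes arose largely by tandem duplication and lie in clusters of near-identical copies, and others of the series have no KRAB domain and act in transcription, ribosome assembly or chromatin. BMAL1 pairs with CLOCK and binds the E-box, which reads CACGTG on both strands.

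The label of the cells was checked with marker genes. The summed level of the 8 pluripotency genes (9 features) ran from 5887 to 6432 FPKM in the 4 libraries, and 2 of the 9 features passed the test, both lower in KO (5.6% of all tested features were), namely *Klf4* (adjusted p = 0.0177) and *Tdgf1* (adjusted p = 0.0322). Both KO libraries were below both WT libraries in 5 of the 9 (31.7% of all tested features were), also in *Nanog*, *Sox2* and *Zfp42*. They were above them in 1 feature of *Esrrb* (27% of all tested features were). Fibroblast genes were found for 6 of 8 symbols, of which 2 had a mean of at least 0.5 FPKM. *Col1a1*, *Col1a2* and *Col3a1*, the collagens that define fibroblasts, were at 0.217 FPKM or less in every library. *Vim*, which many cell types express, was higher in KO (adjusted p = 0.0330 from limma). *Thy1*, the other tested gene, measured 1.69 and 1.54 FPKM in WT and 2.73 and 2.11 in KO (log2 fold change 0.55, adjusted p = 0.120). *Pdgfra*, at 0.0974 FPKM or less in every library and not tested, was also above WT in both KO libraries. Of the extraembryonic endoderm genes, 7 were found, and they summed to 1.14 and 1.23 FPKM in WT and to 1.89 and 1.74 in KO. *Gata4* was the 1 that could be tested and did not pass (log2 fold change -0.22, adjusted p = 0.653), with both KO libraries below WT (31.7% of all tested features were). *Sox7*, *Dab2* and *Foxa2*, all under the mean needed for the test, were above WT in both KO libraries (27% of all tested features were). *Gata6*, *Sox17* and *Afp*, also under that mean, overlapped between the genotypes. The 11 genes found from the list for 2-cell-like cells summed to 0.833 and 0.646 FPKM in WT and to 3.05 and 2.65 in KO. The 1 gene of that list that could be tested, *Zscan4f*, was called higher in KO (adjusted p = 0.0296). The part of the transcripts of these lists in the results on zinc finger genes was not tested. *Arntl* itself stood at 6.05 and 6.29 FPKM in WT and 5.95 and 5.92 in KO (adjusted p = 0.750). FPKM over the transcript does not show a deletion of a few bases, so this level is no check of the label.

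The sequences of most use here are promoter sequences, because the protein that was removed binds a short DNA word and because the genes called between genotypes can be read for it. RefSeq promoters of GRCm38.p6, 250 bases before to 50 bases after each gene start, were matched by symbol for 123 of the member genes, with 151 promoters in all. The E-box letters CACGTG, which read the same on both strands, were present in 14 of these 151 promoters (9.27%), against 2349 of the 32851 promoters of all genes (7.15%) and 4.35% of the 207 promoters of Zfp1 to Zfp599. The promoters held a median of 13 CpG dinucleotides, against 7 over all genes and 16 for Zfp1 to Zfp599. Of the 14 genes with the letters, 7 lie in the group of zinc finger genes on chromosome 17 between 21.4 and 22.9 Mb, at 5 separate positions. They are shown because they place an E-box 10 to 119 bases before the start of neighbouring copies, each as 50 bases on the strand of the gene, with the E-box in capitals:
Zfp820, chr17:21845851-21845900, minus strand: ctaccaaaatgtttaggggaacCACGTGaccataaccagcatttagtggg
Zfp943, chr17:21962491-21962540, plus strand: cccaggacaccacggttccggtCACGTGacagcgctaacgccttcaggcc
Zfp942, chr17:21962491-21962540, minus strand: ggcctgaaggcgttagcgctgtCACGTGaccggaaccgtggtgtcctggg
Zfp947, chr17:22166021-22166070, minus strand: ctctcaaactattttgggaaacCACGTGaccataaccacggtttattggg
Zfp758, chr17:22361402-22361451, plus strand: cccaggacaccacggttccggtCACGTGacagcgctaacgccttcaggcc
Zfp944, chr17:22361402-22361451, minus strand: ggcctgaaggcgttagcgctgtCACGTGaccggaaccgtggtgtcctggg
Zfp946, chr17:22424170-22424219, plus strand: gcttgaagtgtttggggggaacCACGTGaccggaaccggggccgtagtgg

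*Zfp942* and *Zfp943* are transcribed away from each other and share the same E-box, 54 and 46 bases before their starts. The same arrangement is found at *Zfp944* and *Zfp758*, and all 50 bases of the window are the same at both places. The windows of *Zfp820* and *Zfp947* share 40 of 50 bases. A match of these letters is a description of the sequence and not a binding site.

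Of all 14 genes with the letters, 13 could be tested between KO and WT and 0 passed at an adjusted p under 0.05 from limma, where 6.85% of all tested features were higher and 5.6% lower, and 1 had an unadjusted p under 0.05. That gene was *Zfp791* on chromosome 8, named here after its values were seen, at 1.91 and 2.16 FPKM in WT and 1.27 and 1.43 in KO. Its log2 fold change was -0.56 (standard error, SE, 0.18, adjusted p = 0.0990), with both KO libraries below both WT libraries. Over the 13 genes the median was 0.03. Both KO libraries were above both WT libraries in 4 (27% of all tested features were) and below them in 1 (31.7% were). The genotypes overlapped in 8 of the 13 genes and in 5357 of all 12990 tested features.

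The genes of the chromosome 17 group are given in full. *Zfp946* measured 1.03 and 0.989 FPKM in WT and 1.43 and 1.36 in KO, and *Zfp942* measured 2.15 and 2.35 in WT and 2.56 and 3.03 in KO. Both KO libraries were above both WT libraries for these genes, but the log2 fold changes of 0.43 (SE 0.19, adjusted p = 0.197) and 0.30 (SE 0.16, adjusted p = 0.266) missed the threshold. *Zfp943* measured 1.25 and 2.03 FPKM in WT and 1.50 and 1.77 in KO, *Zfp944* 2.96 and 4.68 in WT and 3.17 and 3.16 in KO, and *Zfp820* 2.12 and 2.40 in WT and 1.88 and 2.36 in KO. For each of them the genotypes overlapped. *Zfp947*, merged with 2 other symbols in the table, also overlapped, and *Zfp758*, between 0.258 and 0.544 FPKM, was under the mean needed for the test. *Zfp942*, *Zfp943* and *Zfp947* are listed at the same coordinates, and so are *Zfp758* and *Zfp944*, so the reads of these neighbours may not have been fully separated.

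Of the 148 features, 130 had a mean of at least 0.5 FPKM over the 4 libraries and were tested with all other such features, 12990 in total. The 18 that were not tested had means between 0.0025 and 0.458 FPKM. Among them were *Zfp703*, a corepressor studied in breast cancer (0.0456 and 0.0268 FPKM in WT, 0.104 and 0.135 in KO), *Zfp711*, an X-linked gene tied to intellectual disability (0.0553 and 0.150 in WT, 0.167 and 0.0577 in KO), and *Zfp804a*, a gene at a schizophrenia risk locus, listed at 0 in 3 libraries. The 130 tested features had a median level of 3.82 FPKM, against 9.02 over all tested features. Of them, 9 had a mean under 1 FPKM, 94 were between 1 and 10 and 27 were at 10 or more. The 5 features with the highest means were *Zfp622*, *Zfp706*, *Zfp740*, the merged feature of *Ecsit* and *Zfp653*, and *Zfp961*, with means from 32.9 to 55.0 FPKM.

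KO and WT differed little over these genes. The median log2 fold change (KO minus WT, on the log2(FPKM + 0.1) scale) was -0.02 over the 130 tested features, -0.02 over all 12990 and 0.02 over the 187 tested features of Zfp1 to Zfp599. Its interquartile range ran from -0.16 to 0.14, against -0.20 to 0.18 over all features. The change was within 0.5 in 115 of 130 features (88.5%), against 81.0% of all features and 95.2% of Zfp1 to Zfp599, and it exceeded 1 in 2 features (1.54%), against 6.0% and 0.535%. The spread between libraries was not smaller for the zinc finger genes, since their median SE was 0.16, against 0.12 over all features. In bulk RNA, fewer cells of a type and less RNA per cell cannot be told apart.

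Called means an adjusted p under 0.05 from limma, with Benjamini-Hochberg adjustment over all 12990 features, and a change of more than 2-fold. *Zfp775*, in 1 of its 2 features, was the 1 member called higher in KO, where 2.72% of all tested features were. *Zfp951* was the 1 member called lower, where 1.42% of all tested features were. At an adjusted p under 0.05 and any size of change, 3 members were higher in KO, against 6.85% of all features, and 2 were lower, against 5.6%. Both KO libraries were above both WT libraries in 25 of 130 members (19.2%, against 27.0% of all features) and below them in 28 (21.5%, against 31.7%), and the genotypes overlapped in 77. An unadjusted p under 0.05 was found for 19 of the 130 members and for 3844 of all 12990 features. These counts are descriptions, with no test over the members.

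**Figure D1:**
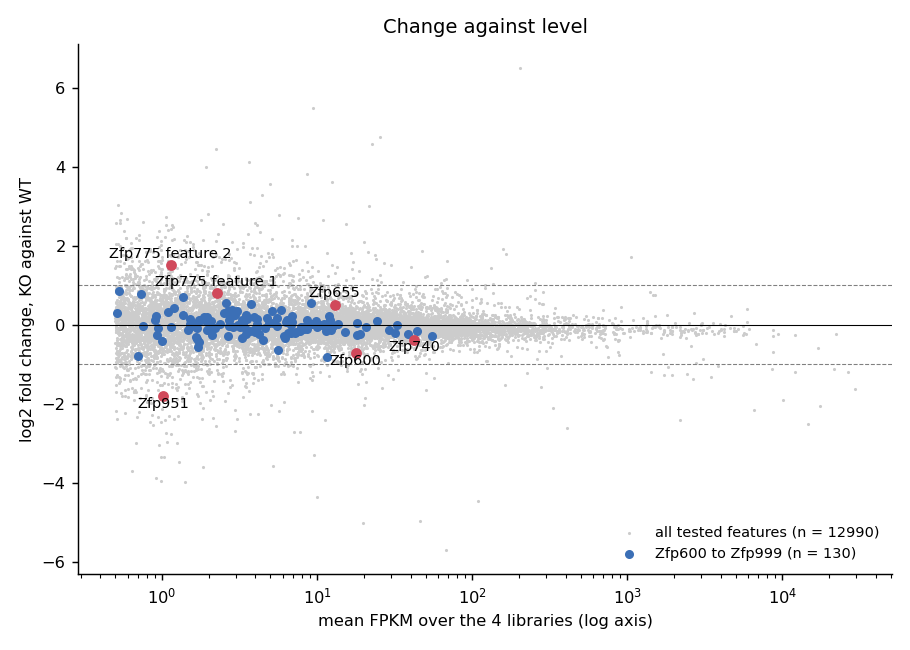
Each point is a tested feature, with the mean FPKM over the 4 libraries on a log axis and the log2 fold change between KO and WT on the vertical axis. The 130 members (blue, with the named ones in red) lie in a narrow band between the dashed lines at 2-fold except for *Zfp951* and *Zfp775* feature 2, while the 12990 tested features (grey) reach from -5.70 to 6.50.

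Among the 130 tested members, *Zfp951* showed the largest log2 fold change. Its FPKM was 1.44 and 1.83 in WT and 0.350 and 0.442 in KO. Both KO libraries were far below both WT libraries. The means were 1.64 ± 0.276 in WT and 0.396 ± 0.0651 in KO (SD, n = 2 each), a 4.14-fold difference in FPKM, with a log2 fold change of -1.81 (SE 0.26, adjusted p = 0.0121). *Zfp951* lies on the minus strand of chromosome 5, from 104811653 to 104860068 of GRCm38, with no other member within 1 Mb. Of its transcript, 1.2% of the 50-base words also occur in another annotated gene. The closest of the 4 tested features within 500 kb was *Gbp9*, 218.3 kb away, and the 4 had a median log2 fold change of 0.29. *Spp1*, the gene for osteopontin, 370.6 kb away, was the 1 of them that passed the test, and it was higher in KO, at 164 and 181 FPKM in WT and 266 and 292 in KO (log2 fold change 0.69, SE 0.09, adjusted p = 0.00988).

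RefSeq gives a pair of starts for *Zfp951*, and the 250 bases before them hold 6 and 7 CpG and no CACGTG. The sequence before the outer start is shown because this gene had the lowest KO level relative to WT among the tested members, with CpG in capitals:
Zfp951, chr5:104860069-104860318, minus strand: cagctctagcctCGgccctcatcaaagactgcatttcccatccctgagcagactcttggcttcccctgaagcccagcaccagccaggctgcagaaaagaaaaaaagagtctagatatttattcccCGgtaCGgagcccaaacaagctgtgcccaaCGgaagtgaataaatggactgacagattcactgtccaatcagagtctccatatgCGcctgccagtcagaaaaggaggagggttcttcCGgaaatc

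*Zfp775* is listed as 2 features with the same coordinates, on the plus strand of chromosome 6 from 48602016 to 48623227. Feature 2 measured 0.597 and 0.491 FPKM in WT and 1.86 and 1.59 in KO, and feature 1 measured 1.75 and 1.47 in WT and 3.08 and 2.69 in KO. Both KO libraries were above both WT libraries in each feature. The log2 fold change was 1.50 (SE 0.23, adjusted p = 0.0144) for feature 2 and 0.80 (SE 0.17, adjusted p = 0.0356) for feature 1. Summed over both features, *Zfp775* measured 2.35 and 1.96 FPKM in WT and 4.93 and 4.29 in KO, with a log2 fold change of 1.06 (SE 0.16, adjusted p = 0.0133). Feature 1 no longer passed in limma with no filter on low values (adjusted p = 0.0838), without WT replicate 2 or without KO replicate 1. Of the *Zfp775* transcript, 12.6% of the 50-base words, read on either strand, occur in other genes, 10.4% in *Gm38804*. The counting is not stated to use strand, so reads of these words cannot be assigned to 1 gene. With a pseudocount of 1 in place of 0.1, the log2 fold changes of *Zfp951* and *Zfp775* feature 2 were -0.92 and 0.82, under 2-fold, at adjusted p = 0.0115 and 0.0127.

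The neighbours of *Zfp775* on either side changed in the same direction. *Repin1*, a zinc finger gene tied to DNA replication, ends 2.9 kb before it and measured 2.59 and 2.55 FPKM in WT and 6.59 and 5.91 in KO. *AI854703* begins 4.1 kb after it and measured 0.261 and 0.410 FPKM in WT and 1.05 and 1.15 in KO. Both genes were well above WT in each KO library. Their log2 fold changes were 1.25 (SE 0.12, adjusted p = 0.00544) and 1.48 (SE 0.30, adjusted p = 0.0309), and both were called. The next features did not pass the test, as *Lrrc61*, 29.3 kb before *Zfp775*, had a log2 fold change of 0.30 (adjusted p = 0.204) and *Gimap9*, 52.8 kb after it, -0.08 (adjusted p = 0.906). Over the 10 tested neighbours within 500 kb the median was 0.31, and the 2 called were the closest on each side.

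**Figure D2:**
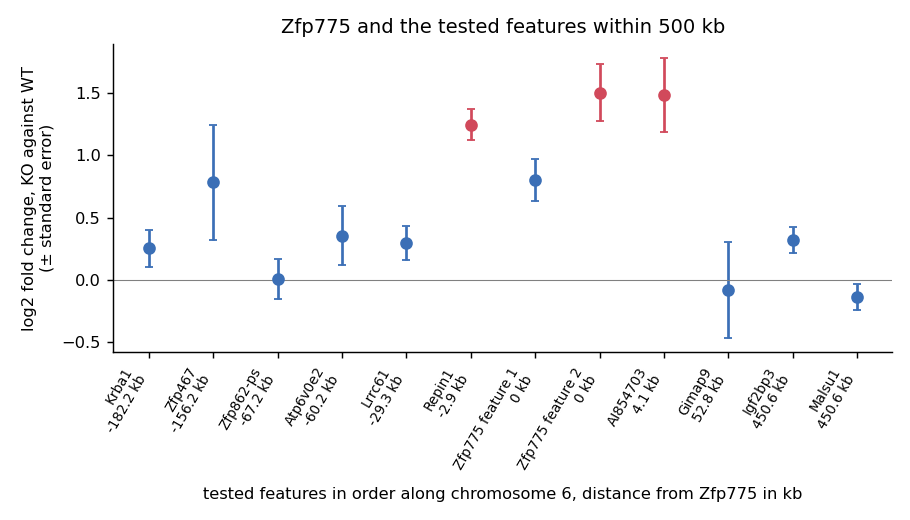
The log2 fold change between KO and WT (points, ± SE of the fit) is plotted for *Zfp775* and the 10 tested features within 500 kb, in their order along chromosome 6 and with the distance in kb under each name. *Repin1*, *Zfp775* feature 2 and *AI854703*, called higher in KO (red), lie next to each other between 1.25 and 1.50, with *Zfp775* feature 1 at 0.80 among them and the other features (blue) at 0.78 or less.

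The promoter of *Zfp775* is rich in CpG, with 18 in the 250 bases before its start against 6 and 7 for the starts of *Zfp951*, and it also holds no CACGTG. It is printed for contrast with that of *Zfp951*, with CpG in capitals:
Zfp775, chr6:48601757-48602006, plus strand: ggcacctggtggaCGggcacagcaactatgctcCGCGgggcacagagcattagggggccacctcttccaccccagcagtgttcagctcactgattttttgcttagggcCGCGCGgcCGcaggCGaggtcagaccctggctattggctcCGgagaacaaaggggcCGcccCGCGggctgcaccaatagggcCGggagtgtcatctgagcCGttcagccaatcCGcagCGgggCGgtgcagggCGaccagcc

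A pair of members with higher levels passed the test with smaller changes. *Zfp655*, which encodes a zinc finger protein linked to the cell cycle, measured 10.6 and 10.7 FPKM in WT and 14.4 and 16.1 in KO. Its log2 fold change was 0.51 (SE 0.10, adjusted p = 0.0265 from limma), and without KO replicate 2 it was 0.43. *Zfp655* missed the threshold with that library left out, with no filter on low values (adjusted p = 0.0519) and with no trend (adjusted p = 0.0599). *Zfp740* measured 48.3 and 46.8 FPKM in WT and 37.3 and 36.2 in KO, a log2 fold change of -0.37 (SE 0.07, adjusted p = 0.0298). The genotypes were clearly apart in both genes, but *Zfp740* missed the threshold when any of the 4 libraries was left out. It also missed it in limma with no trend (adjusted p = 0.0809). *Itgb7*, an integrin gene that begins 0.1 kb after *Zfp740*, was also lower in KO, at 16.2 and 14.8 FPKM in WT and 11.2 and 10.2 in KO (log2 fold change -0.54, SE 0.10, adjusted p = 0.0262). It was 1 of 2 that passed among the 24 tested features within 500 kb, and the other, *Calcoco1* at 491 kb, was higher in KO (log2 fold change 0.46, adjusted p = 0.0389). None of the 12 tested features within 500 kb of *Zfp655* passed.

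**Figure D3:**
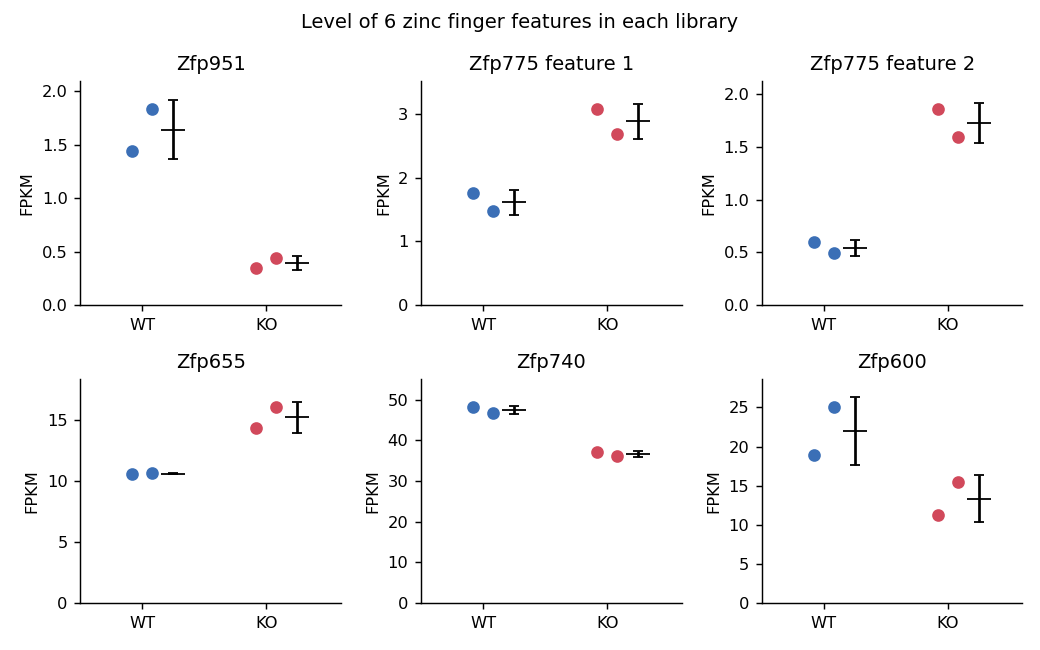
FPKM of 6 features in the 2 WT (blue) and 2 KO (red) libraries, each panel with its own axis from 0, and the mean ± SD beside the points. The genotypes do not overlap in any panel, with the KO libraries below WT for *Zfp951*, *Zfp740* and *Zfp600* and above it for *Zfp775* and *Zfp655*. All but *Zfp600* are features that passed the test, so their separation follows from that choice. Over the 130 tested members the genotypes overlapped in 77.

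Members with a known role were read in turn. *Zfp600*, from a family of near-identical genes on chromosome 4, measured 18.9 and 25.1 FPKM in WT and 11.2 and 15.5 in KO, without overlap, and its log2 fold change of -0.72 (SE 0.20) missed the threshold at an adjusted p of 0.0723. It passed with adjusted p = 8.91e-05 without WT replicate 1, 0.0333 without WT replicate 2 and 0.00632 without KO replicate 2, but not without KO replicate 1 (adjusted p = 0.10). Of its transcript, 85.0% of the 50-base words occur in other genes, 78.0% in *Rex2* alone, so the value may not belong to this gene. The epidermal differentiation gene *Zfp750* was low, at 0.957 and 0.883 FPKM in WT and 0.460 and 0.514 in KO, and also missed the threshold (log2 fold change -0.80, SE 0.25, adjusted p = 0.0990).

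Among the members that act against transposable elements, *Zfp809*, which silences retroviruses of the murine leukaemia type in ESCs, measured 10.9 and 10.4 FPKM in WT and 10.6 and 10.8 in KO. Its genotypes overlapped and the log2 fold change was 0.01 (SE 0.09, adjusted p = 0.967). *Zfp819*, whose protein binds TRIM28 and which is active in pluripotent cells, measured 9.39 and 9.46 FPKM in WT and 9.64 and 10.7 in KO (log2 fold change 0.11, SE 0.10, adjusted p = 0.514). *Zfp932*, a regulator of endogenous retroviruses, measured 10.2 and 12.97 FPKM in WT and 10.8 and 14.7 in KO (log2 fold change 0.13, SE 0.18, adjusted p = 0.678), and 42.6% of its 50-base words occur in its paralog *Gm15446*. *Zfp708*, merged with *Rslcan18* in the table, measured between 1.83 and 2.31 FPKM, with overlap. None of these genes passed the test.

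Members with other roles did not pass the test either. *Zfp622*, which acts in the assembly of the large ribosomal subunit, had the highest mean of all members, at 58.7 and 61.7 FPKM in WT and 46.5 and 53.2 in KO (log2 fold change -0.28, SE 0.09, adjusted p = 0.114). *Zfp706*, which acts in the exit of ESCs from self-renewal, measured 43.4 and 49.8 FPKM in WT and 38.0 and 45.7 in KO (adjusted p = 0.435). *Zfp639* measured 16.5 and 15.8 FPKM in WT and 13.1 and 15.3 in KO (adjusted p = 0.286). The KO libraries were below WT for *Zfp622* and *Zfp639* and overlapped with WT for *Zfp706*. *Zfp746*, the parkin substrate PARIS, *Zfp687*, *Zfp827*, a recruiter of chromatin remodellers, *Zfp830*, needed in the early embryo, and *Zfp961* had log2 fold changes between -0.07 and 0.03, and their genotypes overlapped.

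Ordering the members along the genome, with successive members within 1 Mb joined, gave 71 groups, of which 51 held 1 feature and 20 held at least 2. In 16 groups, 3 or more features were tested, 82 in all. The medians of their log2 fold changes ran from -0.21 to 0.34, and 7 were above 0 and 9 below. The 2 features of *Zfp775* were the only ones of the 82 that passed the test (2.44%, against 12.5% of all tested features). In 15 of 16 groups at least 1 member overlapped between genotypes or went the other way. The exception was the group of *Zfp623*, *Zfp707* and *Zfp647* on chromosome 15, where all 3 were lower in both KO libraries (31.7% of all tested features were). *Zfp623* measured 6.74 and 7.13 FPKM in WT and 5.73 and 6.37 in KO, and *Zfp707* measured 8.26 and 7.33 in WT and 6.85 and 6.91 in KO. The median log2 fold change of this group was -0.18, against -0.01 over the 38 other tested features of the same stretch, and none of the 3 passed the test.

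**Figure D4:**
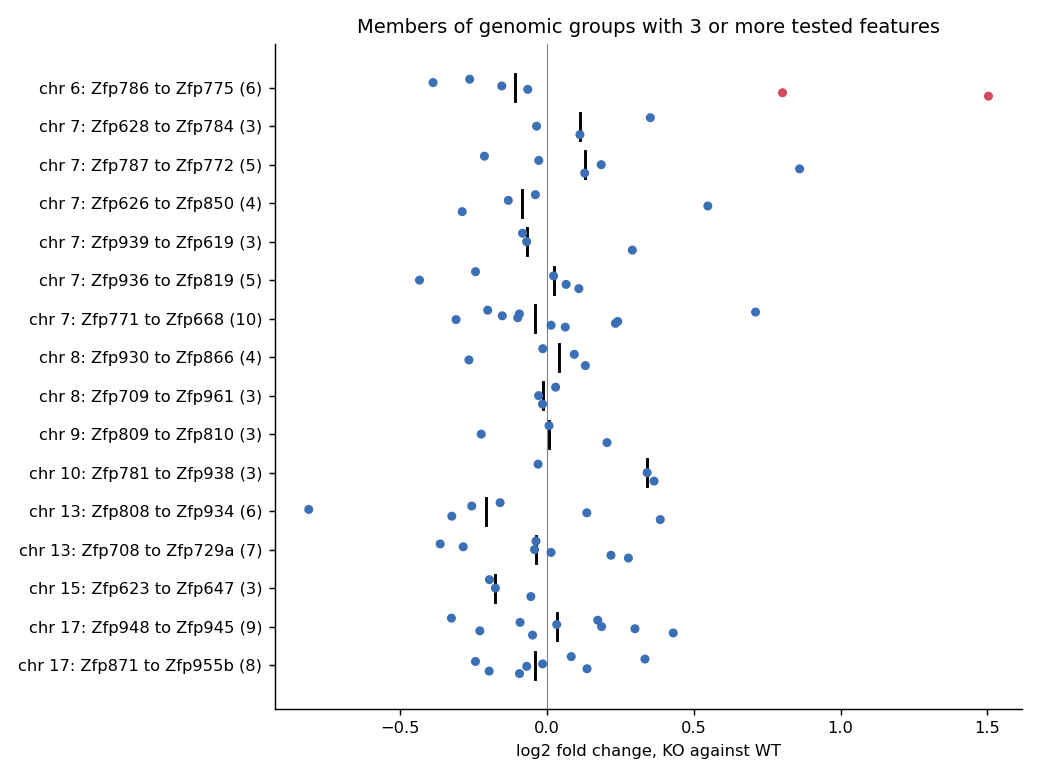
The log2 fold change between KO and WT for each tested member (points) of the 16 genomic groups with 3 or more tested features, named by the chromosome and by the first and last member, with the number of features in brackets and the median as a black line. The medians lie between -0.21 and 0.34, points are on both sides of 0 in most groups, and the 2 points in red, the features of *Zfp775*, are the ones with an adjusted p under 0.05.

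The largest groups held genes on both sides of 0. On chromosome 7 between 127.2 and 127.9 Mb, 10 features were tested, with *Zfp771* as the most abundant (28.6 and 39.2 FPKM in WT, 26.9 and 31.5 in KO) and *Zfp768* with the largest change (1.03 and 0.987 in WT, 1.87 and 1.57 in KO). *Zfp768* had a log2 fold change of 0.71 (SE 0.19) and missed the threshold at an adjusted p of 0.0706. On chromosome 17 between 21.4 and 22.9 Mb, where the E-boxes above lie, the log2 fold changes of 9 tested features ran from -0.33 for the merged feature of *Zfp948* to 0.43 for *Zfp946*. In the next group of that chromosome, from 32.8 to 33.3 Mb, 8 features were tested and their log2 fold changes lay between -0.24 and 0.33, and *Zfp955b*, the most abundant, shares 50.6% of its 50-base words with other genes.

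In the group on chromosome 13 between 61.7 and 62.7 Mb, 1 library decided a value. *Zfp808* feature 2 measured 13.9 and 14.5 FPKM in WT and 12.9 and 5.03 in KO, so that KO replicate 2 stood apart from the other 3 libraries. Its log2 fold change of -0.81 (SE 0.40, adjusted p = 0.240) became -1.48 (adjusted p = 0.00015) without KO replicate 1 and -0.14 (adjusted p = 0.567) without KO replicate 2. Feature 1 of the same gene, at the same coordinates, measured 16.1 and 23.1 FPKM in WT and 14.0 and 18.6 in KO, with overlap. The transcript shares 46.4% of its 50-base words with other genes.

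The remaining members named for their groups did not pass the test. On chromosome 6, *Zfp777* was the most abundant member of the group that holds *Zfp775*, at 12.7 and 11.2 FPKM in WT and 11.5 and 9.97 in KO. In the other groups of chromosome 7 with 3 or more tested features, the members with the largest change of their group were *Zfp628* (log2 fold change 0.35), *Zfp773* (0.86, from 0.347 and 0.348 FPKM in WT to 0.737 and 0.689 in KO, adjusted p = 0.110), the merged feature of *Zfp780b* (0.55), *Zfp619* (0.29) and *Zfp658* (-0.43). The most abundant members of these groups were the merged feature of *Zfp524* and *Zfp865* (log2 fold change -0.04), *Zfp787* (-0.21), *Zfp850* (-0.29), *Zfp939* feature 1 (-0.08) and *Zfp936* (-0.24). On chromosome 8, the merged feature of *Zfp868* and *Zfp869* reached 20.99 to 26.6 FPKM with a log2 fold change of 0.09, while *Zfp963* had -0.27 and *Zfp709* 0.03. *Zfp938* on chromosome 10, at 4.34 and 5.95 FPKM in WT and 5.91 and 7.31 in KO, stood at 0.36 with overlap. On chromosome 13, *Zfp759* had -0.36 and the merged feature of *Zfp729b* and *Zfp738* 0.22, and on chromosome 17 *Zfp811* feature 1 had 0.33.

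How far each value belongs to 1 gene differed between members. Of 146 members with an annotated transcript, 72 had under 1% of their 50-base words in another gene and 42 had at least 10%, with a median of 1.2%. In the table, 13 members are merged with another symbol, 42 share their coordinates with another feature and 7 symbols stand on more than 1 feature. Of the tested members, 68 had a feature of their own and under 10% of shared words. Among these, *Zfp655* was the 1 gene higher at an adjusted p under 0.05, and *Zfp951* and *Zfp740* were the 2 lower. Together they were 4.41% of the 68, against 12.5% of all tested features that passed. The median log2 fold change of the 68 was -0.01.

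The genes through which KRAB zinc finger proteins silence chromatin were read from a list of 37 symbols. Of these, 35 were found and all were tested, with a median log2 fold change of -0.05. At an adjusted p under 0.05, 3 were lower in KO (5.6% of all features were), 1 was higher (against 6.85%), and none exceeded 2-fold, against 2.72% of all features called higher and 1.42% called lower. *Trim28*, the corepressor that KRAB domains bind, measured 941 and 923 FPKM in WT and 724 and 718 in KO (log2 fold change -0.37, SE 0.07, adjusted p = 0.0306). The de novo DNA methyltransferase gene *Dnmt3b* measured 61.3 and 62.0 FPKM in WT and 37.1 and 34.97 in KO (log2 fold change -0.77, SE 0.07, adjusted p = 0.00522). Its cofactor gene *Dnmt3l* measured 246 and 239 FPKM in WT and 197 and 188 in KO (log2 fold change -0.34, SE 0.07, adjusted p = 0.0366). In all 3 genes, taken because they passed as lower, both KO libraries lay below both WT libraries. Over the 35 genes of the list, both KO libraries were below both WT libraries in 9 (31.7% of all tested features were). They were above them in 7 (27% of all tested features were).

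*Atf7ip*, whose protein stabilises SETDB1, was the gene of the list that was higher in KO, at 11.2 and 12.6 FPKM in WT and 15.9 and 17.2 in KO (log2 fold change 0.48, SE 0.10, adjusted p = 0.0352). *Setdb1* itself measured 35.1 and 36.1 FPKM in WT and 41.7 and 40.4 in KO, without overlap, but missed the threshold (log2 fold change 0.21, SE 0.07, adjusted p = 0.130). *Dnmt3b* passed in each of the 14 alternative analyses. *Trim28* and *Dnmt3l* missed the threshold when any of the 4 libraries was left out, with adjusted p up to 0.146 and 0.135 over all alternatives, and *Atf7ip* missed it without WT replicate 1 and without KO replicate 2, at up to 0.0964.

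**Figure D5:**
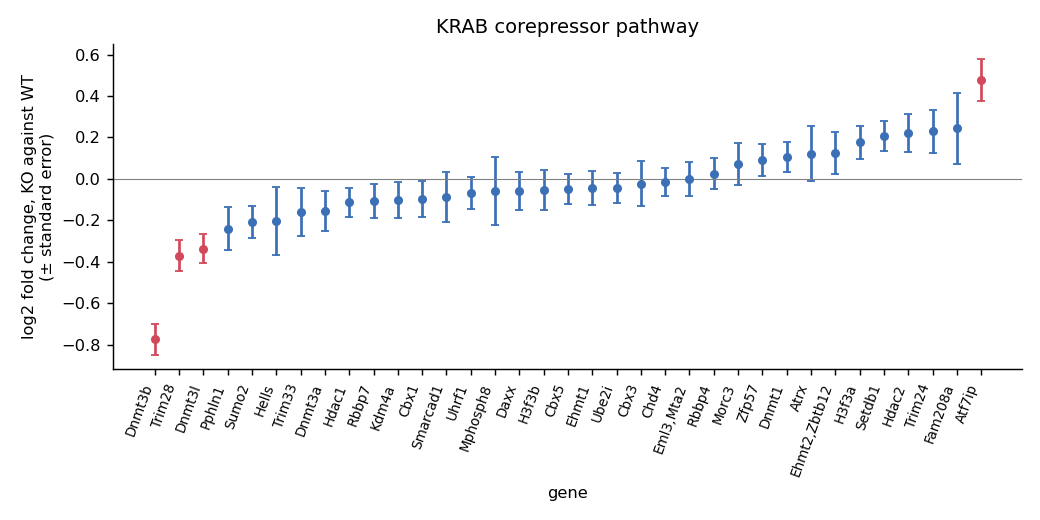
The log2 fold change between KO and WT (points, ± SE of the fit) for the 35 genes of the KRAB corepressor list that were found, in order of their change, with the 4 genes at an adjusted p under 0.05 in red. *Dnmt3b*, *Trim28* and *Dnmt3l* lie at -0.77, -0.37 and -0.34 and *Atf7ip* at 0.48, and the other genes lie between -0.24 and 0.24.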

How the data were processed

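The deposited tables hold FPKM per feature for each of the 4 libraries. By the methods and the submitters' processing notes, the authors depleted ribosomal RNA, aligned reads to GRCm38 (mm10) with TopHat2 2.1.1 and Bowtie2 2.3.0 and estimated FPKM with Cufflinks 2.2.1. How reads that match several copies were shared is not given in the sources used here, and no read number is kept in FPKM. Precision therefore rests on the spread between replicates, drawn in each feature towards a variance estimated from all tested features. The files count starts from 0 (of 4160 features sharing an annotated end, 1463 start 1 base lower), so 1 was added to each start.

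Libraries were grouped by their labels. The test between KO and WT used limma 3.58.1 (R 4.3.3) on log2(FPKM + 0.1), with empirical Bayes moderation and a level-dependent prior variance, for 12990 features whose mean reached 0.5 FPKM, and Benjamini-Hochberg adjustment over all of them. The code was tested on simulated data. With 2 against 2 libraries an exact permutation test cannot go below p = 0.333, so none is given. Members, lists and tests were chosen with earlier results of these data known. Named genes are those called or past the adjusted p, the most abundant and most changed of each genomic group, the 5 highest, members with a written role, and the genes of the lists past the test with *Trim28* and *Setdb1*; genes beside E-boxes come from the promoter search, with *Zfp791* chosen among them after its values were seen. *Zfp989*, on the list of roles, was not analysed here. GENCODE M21 gave transcripts for 50-base words and GC content, by symbol for 143 of 144 symbols. Tables and figures were made in Python 3.11.15 with matplotlib 3.10.9, pandas 2.3.3 and numpy 2.4.6.

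The 14 alternatives were a pseudocount of 1 or 0.01, no filter, a mean of at least 1 FPKM, the replicate number as a block, no trend, quantile normalization, median-of-ratios scaling, features without a symbol left out, FPKM summed by symbol, and each library left out.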

Additional observations from a re-analysis of the deposited data

How the results depend on the processing

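The median log2 fold change of the members was -0.02. It ran from -0.03 to -0.01 in the 10 alternatives that kept all libraries and from -0.07 to 0.08 with a library left out, above 0 without WT replicate 2 or KO replicate 1. With a pseudocount of 1, 0 members were called higher and 0 lower by limma, while 5 had an adjusted p under 0.05 as before, and the calls over all features went from 538 to 231. Members with an adjusted p under 0.05 numbered 3 with no filter on low values and 9 with features without a symbol left out. Over all features, 951 of 19645 and 2047 of 11944 passed in these fits, against 1618 of 12990 in the main fit. Members called lower numbered 1 to 2 with a library left out, the second being *Zfp808* without KO replicate 1, and members called higher 1 in each. Genes of the corepressor list past the threshold numbered 1 with no filter, 2 with quantile normalization and 1 with no trend. Over all features, 951, 1588 and 1165 passed in these fits. Where a library is left out, the lone sample of its genotype is assumed to vary like the other group.

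The labels give WT and KO the same replicate numbers, and nothing says that a number marks a shared day or batch. Differences between replicates 1 and 2 correlated between the genotypes across all tested features with r = 0.07 and rho = 0.39, and across the 130 members with r = 0.33 and rho = 0.57. With the replicate block, 19 members and 11 corepressor genes had an adjusted p under 0.05, and 4052 features against 1618, while 1 member was called in each direction. Of the named members, 12 passed with the replicate block and not without it: *Zfp600*, *Zfp622*, *Zfp628*, *Zfp706*, *Zfp768*, *Zfp808* feature 1, *Zfp850*, *Zfp936*, *Zfp938* and the merged features of *Zfp653*, *Zfp780b* and *Zfp948*, with adjusted p from 0.00239 to 0.0481.

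Of 47 named members with a test, *Zfp951* passed in 14 of 14 alternatives and *Zfp775* feature 2 in 13 of 13. Among 649 single values, 27 newly passed, 11 no longer passed, and 27 changed sign without passing before or after. Depth is unknown. A change the size of the median standard error of a member, 0.16 on the log2 scale, could not be told from the spread between replicates. Changes several times larger than their SE also missed the threshold, as *Zfp768* (0.71, SE 0.19) and *Zfp600* (-0.72, SE 0.20) did. *Zfp775* feature 1 (0.80, SE 0.17) passed. A member that did not pass is therefore not shown to be unchanged.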

Other observations

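The members differed between replicates in a way that the other features shared in part. Replicate 2 was above replicate 1 in both genotypes in 76 of 130 tested members (58.5%), against 33.9% of all tested features and 51.3% of Zfp1 to Zfp599, and below it in both in 26 (20%, against 35.8% and 24.1%). The median difference of replicate 2 from replicate 1 was 0.14 in WT and 0.15 in KO on the log2 scale, against 0.00 and -0.02 over all features. In the groups on chromosome 13 from 67.0 Mb, chromosome 7 from 43.1 Mb and chromosome 8 from 69.2 Mb, replicate 2 was higher in both genotypes in 7 of 7, 5 of 5 and 4 of 4 tested members. In the group on chromosome 7 from 127.2 Mb it was higher in 1 of 10 and lower in 6.

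GC content moved with this difference. The longest transcript of the members had a median GC content of 42.7%, against 49.98% over all features. Across 129 members, which share the same 4 libraries, the difference between replicates correlated with GC content with r = -0.54 and rho = -0.63 in WT and r = -0.43 and rho = -0.57 in KO, against r = -0.38 and rho = -0.55 in WT and r = -0.33 and rho = -0.56 in KO across 11528 features, and r = -0.59 and -0.60 across 186 features of Zfp1 to Zfp599. Of the 64 members under the median GC content, 60 were higher in replicate 2 in WT and 57 in KO. The difference of KO from WT correlated with GC content across members with r = 0.12 and rho = 0.00. The part of GC content in the replicate spread was not tested.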
